A study of Mus musculus with 17 samples.

Results

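The 10 genes described here mark blood vessels or drive their growth: the ligands Vegfa and Angpt2, the receptors Kdr, Flt1, Tek and Eng, and the endothelial surface and junction genes Pecam1, Cdh5, Emcn and Plvap. They were listed by symbol, with earlier results of these data known, and matched 10 of the 55450 Ensembl gene rows of the count table through the Gencode vM21 annotation. All 10 passed the filter on low counts in each comparison. On GRCm38, Kdr (chr5:75932827-75978458) and Flt1 (chr5:147561604-147726011) lie on 1 chromosome, Cdh5 (chr8:104101625-104144511), Angpt2 (chr8:18690263-18741562) and Plvap (chr8:71497765-71511752) on another, and the rest on chr2 (Eng), chr3 (Emcn), chr4 (Tek), chr11 (Pecam1) and chr17 (Vegfa).

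The counts came from bulk RNA-seq of 17 tumors that grew after 100000 AB12 cells, a mouse mesothelioma line, were placed in the peritoneum of 8-week-old female BALB/c mice. The untreated group comprised 3 tumors of d6, 5 of d10 and 3 of d14. Tumors of mice given anti-CTLA4, at 200 µg per injection, were taken on d10 and on d14, 3 on each day. The antibody, clone 9D9, is directed against an inhibitory T cell receptor. AB12 is 1 line, and the tumors were pieces of tissue that mix AB12 cells with host cells. The methods state a minimum of 3 mice for each group, but the labels do not tie libraries to animals, so whether the 5 untreated d10 tumors came from 5 mice is not given in the sources used here. If some shared a mouse, p-values of comparisons with that group are too small. No control antibody is named for the untreated groups. For the treated d14 tumors the paper gives injections on d6 and d10. The days of injection for the treated d10 tumors are not given in the sources used here. The treated d10 and d14 groups may therefore differ in the number of injections as well as in day.

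VEGF-A, the product of Vegfa, is the main growth factor of blood vessels. It signals through VEGFR2, the product of Kdr, whereas VEGFR1, the product of Flt1, binds it tightly, signals weakly, and is also made as a soluble form that holds the ligand back. Angiopoietin 2, which endothelial cells release when vessels are remodelled, binds the receptor Tie2, the product of Tek. Flt1 is also made by macrophages and Pecam1 by platelets and leukocytes, and Eng is found on macrophages and fibroblasts as well, so these genes are less restricted to endothelium than Cdh5.

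Sequence upstream of the start site was on hand for 6 of the 10 genes (Kdr, Flt1, Tek, Emcn, Eng and Vegfa), from RefSeq on GRCm38.p6. The 4 printed here belong to genes whose levels rose (Emcn, Kdr, Vegfa) or fell (Flt1) as the tumors grew, so that their promoters can be set side by side. Each run is the 250 bases before the RefSeq start on the gene's own strand, which lies 0 to 11 bases from the start of the gene in Gencode vM21. Capitals mark GGAAG or its reverse complement CTTCC, a longer form of the GGAA core that ETS factors of endothelial cells recognise. They also mark ACGTG or CACGT, a form of the core of the hypoxia response element. Other forms of these cores, GCGTG among them, were neither marked nor counted, so unmarked stretches can hold them.
Emcn (chr3:137340828-137341077, + strand): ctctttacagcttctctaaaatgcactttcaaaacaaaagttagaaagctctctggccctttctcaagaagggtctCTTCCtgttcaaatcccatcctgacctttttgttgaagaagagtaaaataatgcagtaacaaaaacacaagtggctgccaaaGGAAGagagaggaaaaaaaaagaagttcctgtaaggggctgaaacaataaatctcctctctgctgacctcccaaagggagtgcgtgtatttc
Kdr (chr5:75978456-75978705, - strand): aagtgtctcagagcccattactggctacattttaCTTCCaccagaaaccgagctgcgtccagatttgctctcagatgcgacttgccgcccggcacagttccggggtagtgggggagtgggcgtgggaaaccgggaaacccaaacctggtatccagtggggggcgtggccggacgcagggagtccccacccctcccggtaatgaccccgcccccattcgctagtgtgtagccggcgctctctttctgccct
Flt1 (chr5:147726012-147726261, - strand): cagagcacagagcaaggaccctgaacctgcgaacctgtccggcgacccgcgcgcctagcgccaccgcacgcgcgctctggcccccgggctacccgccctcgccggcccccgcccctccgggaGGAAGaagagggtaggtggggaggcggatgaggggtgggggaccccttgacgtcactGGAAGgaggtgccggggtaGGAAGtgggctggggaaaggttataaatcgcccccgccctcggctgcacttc
Vegfa (chr17:46032378-46032627, - strand): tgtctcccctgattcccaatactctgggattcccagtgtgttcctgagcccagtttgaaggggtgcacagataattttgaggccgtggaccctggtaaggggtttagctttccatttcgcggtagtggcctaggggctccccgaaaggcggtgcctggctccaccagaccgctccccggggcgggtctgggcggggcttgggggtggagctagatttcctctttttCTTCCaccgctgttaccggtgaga
The Emcn promoter held 2 ETS-type words, that of Kdr 1, that of Flt1 3 and that of Vegfa 1. The Eng promoter held 2 and the Tek promoter 0. At least 1 such word stands in 64.1% of all 32851 promoter windows of this length, so its presence in 5 of the 6 is a description of the sequence. The hypoxia-type word stands in 16.6% of all windows and in 0 of the 6, which says only that these letters are not in these windows. The base composition differed widely, from 40.8% G and C upstream of Emcn to 61.6% upstream of Kdr and 70.4% upstream of Flt1.

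Libraries held between 46371577 and 96759833 counted reads. Cdh5, Kdr, Emcn and Plvap, markers of endothelium, were detected in every tumor, as were Pecam1, Flt1 and Eng, which other cells make too, and Tek at a lower level. Of the untreated d10 tumors, replicate 4 stood apart: the summed level of 40 other endothelial genes was 804 CPM (read counts scaled by normalized library size) there and 519 to 554 CPM in the other 4, and 5 red blood cell genes summed to 87.2 CPM against 12.8 to 37.4 CPM. Treated d14 replicates 1 and 3 held genes of the acinar pancreas at summed levels of 3199 and 1085 CPM, treated d14 replicate 2 held 1.52 CPM, and the other 14 tumors held at most 0.33 CPM.

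Per kilobase of exon, Vegfa had the highest level in each of the 17 tumors, with a mean of 69.1 ± 17.6 CPM per kb (SD, n = 17). Plvap, which forms the diaphragms of fenestrated capillaries, was second in each tumor at 21.9 ± 9.39 CPM per kb. Eng (10.3 ± 3.87), Pecam1 (10.1 ± 2.72), Flt1 (6.36 ± 1.11) and Cdh5 (4.78 ± 2.29 CPM per kb) came next, and these neighbours changed places between tumors. Angpt2 was at 3.05 ± 1.16 CPM per kb and ranked sixth or seventh. Kdr (1.44 ± 0.709), Emcn (0.831 ± 0.367) and Tek (0.236 ± 0.110 CPM per kb) held the last 3 places in that order in every tumor. The span from the lowest to the highest tumor was widest for Emcn, at 5.58-fold, and narrowest for Flt1, at 2.01-fold.

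**Figure D1:**
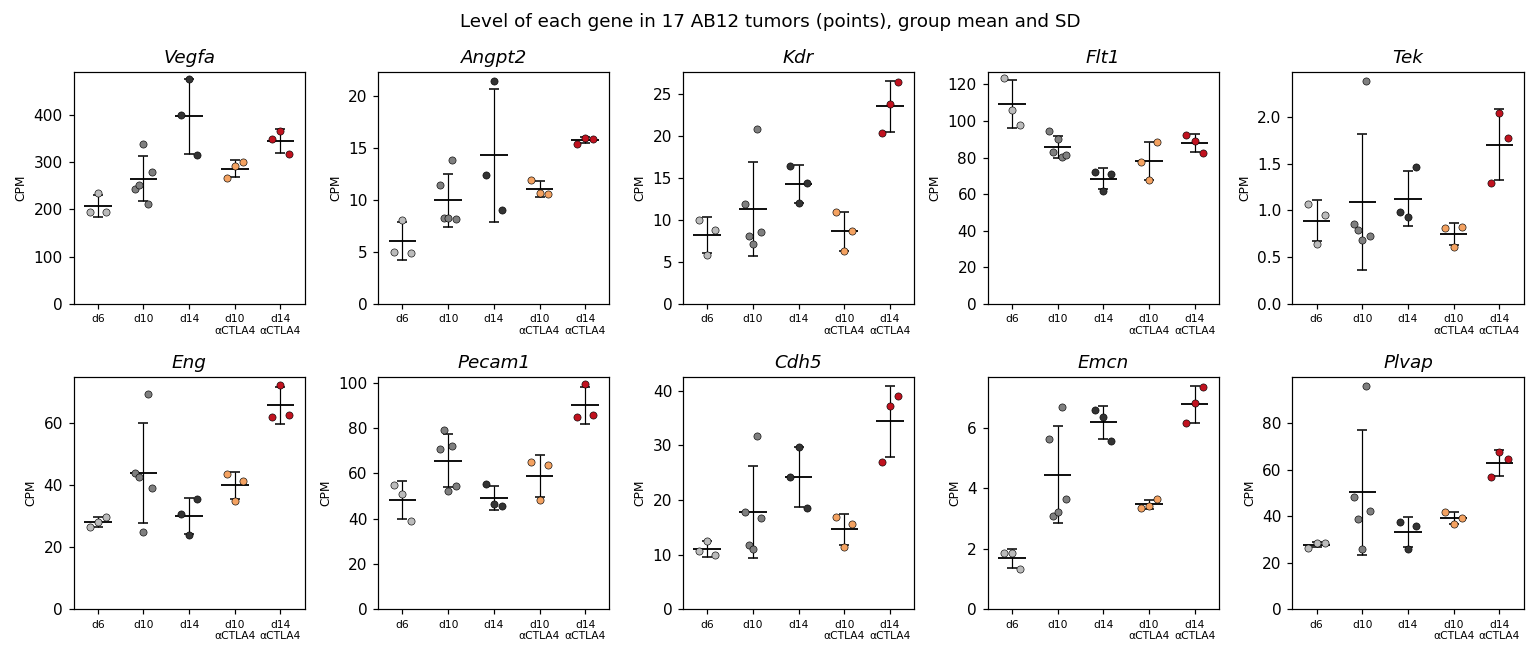
Level of each gene in CPM (vertical axes from 0) in each of the 17 tumors (points), by group, with the group mean (long bar) and SD (error bar); αCTLA4 marks anti-CTLA4. The group means of Emcn and Vegfa were lowest and that of Flt1 highest on d6, and Eng was at 61.8 to 72.2 CPM in the treated d14 tumors against 23.7 to 35.3 CPM in the untreated d14 tumors.

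The first question was how the vascular genes changed as untreated tumors grew. Between d6 and d14, Emcn, Angpt2 and Cdh5 rose more than 2-fold, Vegfa and Kdr rose by less than 2-fold, and Flt1 fell. Pecam1, Eng, Plvap and Tek did not pass the test over the same interval. Called means here an adjusted p below 0.05 and a change of more than 2-fold in edgeR's quasi-likelihood test. By that rule 3 of the 10 genes were called higher, where 10.2% of all 17172 genes tested were. In bulk tissue, fewer cells of a type and less RNA per cell cannot be told apart.

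Of the ligands, Vegfa stood at 194, 234 and 195 CPM in the d6 tumors and at 400, 475 and 316 CPM in the d14 tumors. The 5 d10 tumors lay between 212 and 338 CPM, so the d6 and d14 groups did not overlap whereas the d10 group overlapped both. The rise from d6 to d14 was 0.96 ± 0.15 on the log2 scale (SE, adjusted p = 0.00092), and it was 0.58 ± 0.18 from d10 to d14 (adjusted p = 0.046). Angpt2 was at 5.01, 8.10 and 4.92 CPM on d6 and at 12.4, 21.4 and 9.05 CPM on d14, and all 3 d14 tumors exceeded all 3 d6 tumors. Its rise was 1.27 ± 0.33 (adjusted p = 0.01). The d14 tumors were widely spread, and without untreated d14 replicate 2 the value was 0.86 (adjusted p = 0.019), which is no longer more than 2-fold.

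Of the receptors of VEGF-A, Kdr rose and Flt1 fell. Kdr was at 10.0, 5.79 and 8.79 CPM on d6 and at 16.4, 12.0 and 14.4 CPM on d14, with no overlap and a rise of 0.82 ± 0.21 (adjusted p = 0.011). With all 5 groups in 1 fit the value for Kdr was 0.80 and no longer passed (adjusted p = 0.06). Flt1 was at 124, 106 and 97.8 CPM on d6, at 80.2 to 94.6 CPM on d10 and at 72.3, 61.7 and 71.2 CPM on d14. The 3 days did not overlap for Flt1. It fell by 0.66 ± 0.11 between d6 and d14 (adjusted p = 0.0011) and by 0.33 ± 0.10 between d10 and d14 (adjusted p = 0.04). Per kilobase, the level of Flt1 was 7.44 to 12.3 times that of Kdr in the d6 tumors and 2.94 to 3.44 times that of Kdr in the d14 tumors. The 5 d10 tumors spread from 2.57 to 8.47, and the lowest of these ratios was that of d10 replicate 4. The lengths are of all annotated exons, and counts per gene do not separate the soluble form of VEGFR1. These values are therefore not ratios of the receptors, and the part of macrophages in Flt1 was not tested.

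**Figure D2:**
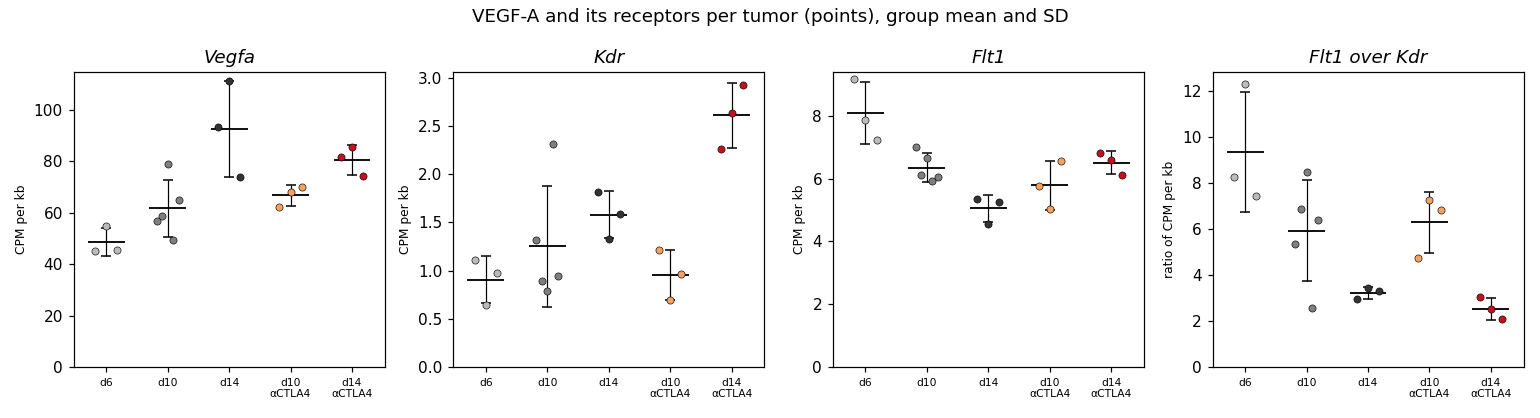
Levels of Vegfa, Kdr and Flt1 in CPM per kb of exon, and the ratio of Flt1 to Kdr on that scale, in each tumor (points) with the group mean and SD. The ratio lay between 7.44 and 12.3 on d6 and between 2.94 and 3.44 on d14.

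Tek was the scarcest of the 10 genes. It was at 0.65 to 1.07 CPM on d6 and at 0.93 to 1.47 CPM on d14, groups that overlapped, and its difference of 0.36 ± 0.30 did not pass the test (adjusted p = 0.34). Eng, a co-receptor of the TGF-beta family that binds BMP9, was at 26.5 to 29.7 CPM on d6 and 23.7 to 35.3 CPM on d14 (0.11 ± 0.14, adjusted p = 0.54). Eng shares 61 exon bases with Fpgs on the other strand, and as the sources do not say whether reads were assigned by strand, a few reads there could belong to either gene.

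Among the surface and junction genes, Emcn, a sialomucin of capillary and venous endothelium, differed most. It was at 1.85, 1.85 and 1.32 CPM on d6, at 3.08 to 6.69 CPM on d10 and at 5.56 to 6.58 CPM on d14. Each d10 and each d14 tumor was above each d6 tumor. The rise was 1.90 ± 0.20 by d14 (adjusted p = 0.00014) and 1.43 ± 0.31 by d10 (adjusted p = 0.012). Without d6 replicate 3, the d10 difference was 1.29 (adjusted p = 0.064). Cdh5, the VE-cadherin of endothelial junctions, was at 10.6, 12.6 and 9.82 CPM on d6 and at 24.2, 29.7 and 18.6 CPM on d14, again with no overlap. It rose by 1.16 ± 0.18 (adjusted p = 0.0009), and by 0.98 (adjusted p = 0.0013) without d14 replicate 2.

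Pecam1, an adhesion molecule of endothelium, platelets and leukocytes, was at 38.9 to 54.7 CPM on d6 and 45.4 to 55.3 CPM on d14, almost the same range (0.04 ± 0.14, adjusted p = 0.81). Plvap was at 26.3 to 28.5 CPM on d6 and 25.8 to 37.7 CPM on d14 (0.27 ± 0.14, adjusted p = 0.12). The d10 tumors were far more spread, from 25.8 to 96.2 CPM for Plvap and from 24.9 to 69.2 CPM for Eng, with d10 replicate 4 the highest in both. The differences of the d10 from the d6 tumors were 0.47 for Pecam1, 0.67 for Eng and 0.88 for Plvap, none of which passed the test (adjusted p = 0.075, 0.10 and 0.11). Without d10 replicate 4 the differences were 0.44, 0.45 and 0.51 (adjusted p = 0.11, 0.12 and 0.089). Without d10 replicate 3 they were 0.54, 0.81 and 1.04, all 3 passed by adjusted p (0.04, 0.02 and 0.039) and Plvap was called, and DESeq2 passed Plvap with all tumors (0.87, adjusted p = 0.049). With all 5 groups in 1 fit the 3 genes passed by adjusted p (0.04, 0.042 and 0.037).

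By adjusted p alone, 5 of the 10 genes were higher and 1 was lower between d6 and d14, where 25.5% of all genes were higher and 26.0% were lower. The median difference of the 10 genes was 0.59, beside 0.01 over all genes tested. Between d6 and d10, Emcn was the 1 gene called, and the 1 past the adjusted p alone, where 4.79% of all genes were called higher and 10.5% were higher by adjusted p alone. The count past the adjusted p alone depended on the fit: it was 4 by DESeq2 (with Angpt2 and Plvap higher and Flt1 lower) and 6 with all 5 groups in 1 fit (with Pecam1 and Eng higher as well). Between d10 and d14, 0 of the 10 were called in edgeR's test, where 7.23% of all genes were called in either direction. In that interval 3 genes had an unadjusted p below 0.05, DESeq2 called 0, and by adjusted p alone Vegfa was higher and Flt1 lower, where 9.80% of all genes were higher and 9.87% lower. With 1 tumor left out at a time, each of these passed in 2 of 8 fits.

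**Figure D3:**
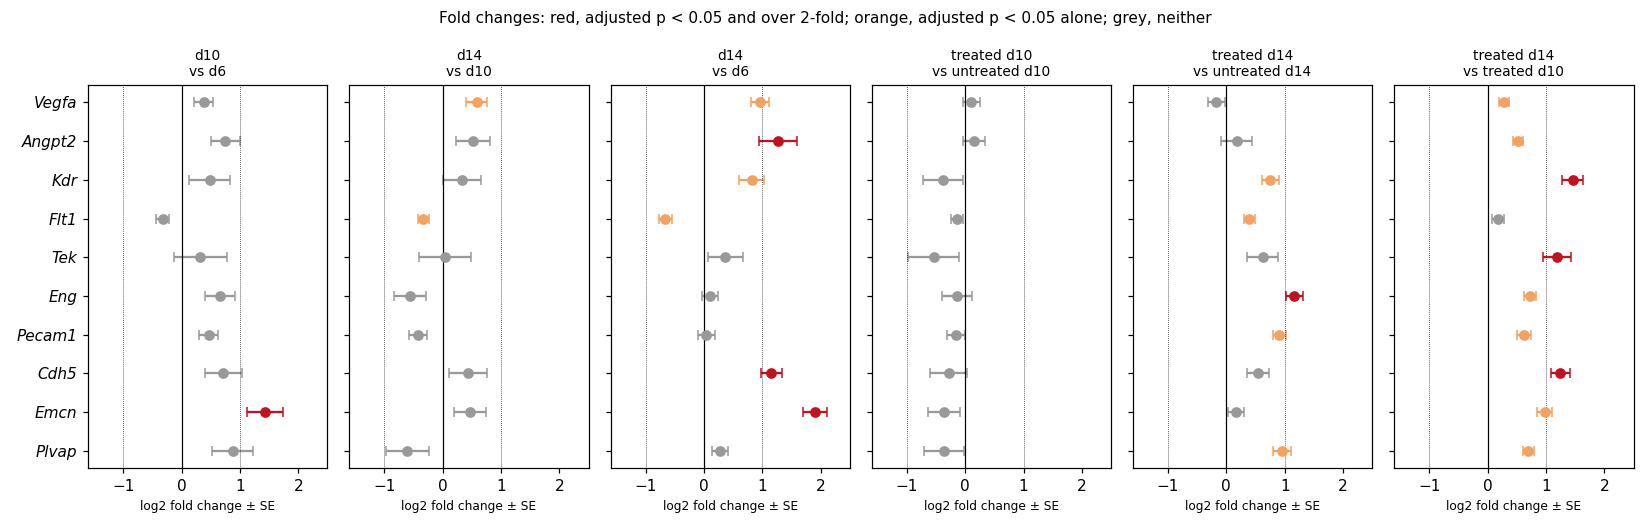
Log2 fold change (horizontal axes) with its standard error for the 10 genes in 6 comparisons; red marks an adjusted p below 0.05 with more than 2-fold change, orange an adjusted p below 0.05 alone, grey neither, and dotted lines stand at 2-fold. The genes called from d6 to d14 were Angpt2, Cdh5 and Emcn, whereas Eng was called between treated and untreated d14 tumors.

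Other vascular genes, from lists assembled by function with earlier results of these data known, were read from the same tests. Of 40 other endothelial genes 39 were tested between d6 and d14, and 13 were called higher and 3 lower, with a median of 0.68. Over all genes 10.2% were called higher and 8.81% lower, so the 3 lower are at the share over all genes. By adjusted p alone 20 were higher and 7 lower, where 25.5% of all genes were higher and 26.0% lower. The summed level of the 40 genes did not show a rise, at 513 to 571 CPM on d6 and 511 to 565 CPM on d14. The largest rises were those of Gpihbp1 (3.33 ± 0.36, adjusted p = 0.00016), which carries lipoprotein lipase across capillaries, Cldn5 (2.92 ± 0.34, adjusted p = 0.00021), a tight junction claudin, and C1qtnf9 (2.13 ± 0.35, adjusted p = 0.0012). The 3 that fell were Ackr1 (-2.40), Icam2 (-2.27) and Selp (-2.10). Ackr1 and Selp, the latter P-selectin, are genes of venules that take part in leukocyte entry. Selp and Icam2 are also made by cells other than endothelium, platelets among them, and the part of such cells in these falls was not tested. Selp was at 29.1, 38.8 and 38.3 CPM on d6 and at 8.52, 7.43 and 8.43 CPM on d14. The rises began early: by d10, Gpihbp1 was already 2.87 ± 0.47 and Cldn5 2.48 ± 0.49 above d6, and 9 genes of the list were called higher and 2 lower, where 4.79% of all genes were called higher and 2.66% lower. Without d10 replicate 4 these counts were 8 and 3, and without d6 replicate 1, 2 or 3 the number called higher was 4.

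Of 26 genes of tip cells and sprouting, 24 were tested between d6 and d14, and 8 were called higher and 0 lower, with a median of 0.63. By adjusted p alone 13 of 24 were higher and 2 lower, where 25.5% of all genes were higher and 26.0% lower. The 2 lower ones were Id1 (-0.71, adjusted p = 0.0011) and Sema3a (-0.48, adjusted p = 0.015). Esm1, a proteoglycan of tip cells that VEGF-A induces, was at 0.85, 1.01 and 0.51 CPM on d6 and at 4.40, 16.2 and 4.08 CPM on d14 (3.41 ± 0.58, adjusted p = 0.0014). Each d14 tumor was above each d6 tumor, and d14 replicate 2, the tumor with the most Vegfa and Angpt2, also had the most Esm1. The size of the rise of Esm1 therefore rests in part on that tumor. Notch4 (2.51 ± 0.18, adjusted p = 3.4e-05) and its ligand gene Dll4 (1.52 ± 0.24, adjusted p = 0.001) rose as well. The list of VEGF and angiopoietin pathway genes gave 2 called of 13, both higher and near the 10.2% of all genes: Angpt4, which reached at most 0.699 CPM in any tumor, and Tie1, which is also on the endothelial list (1.08 ± 0.19, adjusted p = 0.0017).

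Of 13 endogenous inhibitors of angiogenesis, 2 were called higher and 1 lower between d6 and d14, with a median of 0.30, near the 10.2% higher and 8.81% lower of all genes. The counts are therefore no result about the list, and its called genes are described singly. Col4a3, the collagen chain from which tumstatin is cut, was at 0.85, 0.77 and 0.89 CPM on d6 and at 7.67, 8.50 and 8.71 CPM on d14 (3.33 ± 0.18, adjusted p = 1.4e-05). Vash1, which VEGF-A induces in endothelium and which restrains it, rose by 2.08 ± 0.24 (adjusted p = 0.00022). Pf4, a platelet chemokine, fell by 1.29 ± 0.40 (adjusted p = 0.025). The other platelet genes tested went the other way. Of 3 platelet and megakaryocyte genes tested, Pf4 among them, Ppbp was called higher (1.31 ± 0.37, adjusted p = 0.015). By adjusted p alone 2 of the 3 were higher and 1, Pf4, was lower.

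Genes of smooth muscle and pericytes, the cells that wrap vessels, were called in both directions. Of 14 genes, 4 were called lower and 2 higher between d6 and d14, where 8.81% of all genes were called lower and 10.2% higher, so the 2 higher are near the share over all genes. The 4 lower genes were contractile ones: Myh11 (-2.08 ± 0.23), Acta2 (-1.91 ± 0.12), Des (-1.61 ± 0.16) and Tagln (-1.46 ± 0.20), with adjusted p between 2.6e-05 and 0.00042. Acta2 was at 79.6, 72.2 and 95.0 CPM on d6 and at 23.8, 20.6 and 20.5 CPM on d14. The 2 higher genes were Cspg4 (1.52 ± 0.54, adjusted p = 0.041), the pericyte proteoglycan NG2, and Mcam (1.48 ± 0.17, adjusted p = 0.00019), which endothelial cells express too. Fibroblasts, mesothelium and muscle also make contractile genes, and the share of each in these values was not tested.

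Other cell types moved over the same days. The summed level of 10 macrophage genes was 2512 to 2645 CPM on d6, 3053 to 4699 CPM on d10 and 1364 to 2408 CPM on d14, and 5 of these genes were called lower between d6 and d14, where 8.81% of all genes were. The summed level of 8 adipocyte genes was 29.0 to 88.2 CPM on d6, 31.7 to 63.5 CPM on d10 and 16.7 to 26.2 CPM on d14. Between d6 and d14, 4 of 6 tested adipocyte genes were called lower. The summed level of 8 T cell genes was 62.1 to 66.5 CPM on d6, 214 to 296 CPM on d10 and 80.9 to 150 CPM on d14. Between d6 and d14, 3 were called higher, where 10.2% of all genes were, and Cd4 was called lower. From d6 to d10, 6 of the 8 were called higher (4.79% of all genes), and from d10 to d14, 5 were called lower (3.45% of all genes). The summed level of 8 fibroblast genes was 1768 to 1775 CPM on d6, 1608 to 2374 CPM on d10 and 894 to 1710 CPM on d14. Between d6 and d14, 2 of them were called lower and 1 higher. The 20 hypoxia response genes, tested because hypoxia induces Vegfa, gave 1 called gene, where 10.2% of all genes were called higher. It was Car9 (1.45 ± 0.16, adjusted p = 0.00017), at 4.69 to 6.61 CPM on d6 and 13.7 to 15.5 CPM on d14. By adjusted p alone 8 of the 20 were higher and 1 was lower, where 25.5% of all genes were higher and 26.0% lower. The part of these lists in the changes of the vascular genes was not tested.

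The second question was whether anti-CTLA4 treatment changed the vascular genes. At d14, Eng was called higher in treated than in untreated tumors, and Pecam1, Plvap, Kdr and Flt1 were higher by adjusted p alone. Vegfa, Angpt2 and Emcn, which had risen with growth, did not pass the test between treated and untreated tumors. The 1 gene called higher of 10 stands beside 9.07% of all 18062 genes, and the 5 higher by adjusted p alone beside 17.7%. The median of the 10 genes was 0.58, beside -0.0043 over all genes tested.

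Eng was at 61.8, 72.2 and 62.4 CPM in the treated d14 tumors and at 30.5, 23.7 and 35.3 CPM in the untreated ones. The groups did not overlap, and the difference was 1.17 ± 0.15 (adjusted p = 0.0049), with 1.01 to 1.33 when each tumor was left out in turn. Pecam1 was at 85.1, 99.4 and 85.7 CPM against 55.3, 46.4 and 45.4 CPM (0.91 ± 0.11, adjusted p = 0.0047). Plvap was at 56.8 to 67.7 CPM against 25.8 to 37.7 CPM (0.96 ± 0.15, adjusted p = 0.0063). The treated tumors were above each untreated tumor in both genes.

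Both receptors of VEGF-A were higher in treated d14 tumors. Kdr was at 20.4, 23.8 and 26.4 CPM in the treated tumors, above the 12.0 to 16.4 CPM of the untreated ones (0.75 ± 0.14, adjusted p = 0.0098). With all 5 groups in 1 fit the value for Kdr was 0.72 and did not pass (adjusted p = 0.12). Flt1 was at 82.3 to 92.2 CPM, above 61.7 to 72.3 CPM (0.39 ± 0.09, adjusted p = 0.018), and thus near its level of 80.2 to 94.6 CPM in the untreated d10 tumors. The ratio of Flt1 to Kdr per kilobase was 2.08 to 3.02 in the treated and 2.94 to 3.44 in the untreated d14 tumors, ranges that overlap. Cdh5 (0.54 ± 0.19, adjusted p = 0.058) and Tek (0.62 ± 0.27, adjusted p = 0.11) did not pass.

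Of the ligands, Vegfa was at 318 to 366 CPM in the treated tumors, within the range of the untreated d14 tumors (-0.17 ± 0.14, adjusted p = 0.38). Angpt2 lay in a narrow range of 15.4 to 15.9 CPM in the 3 treated tumors and between 9.05 and 21.4 CPM in the 3 untreated tumors, with a difference of 0.18 ± 0.27 (adjusted p = 0.64). Emcn overlapped between the groups as well, at 6.15 to 7.35 against 5.56 to 6.58 CPM (0.17 ± 0.13, adjusted p = 0.37). Pgf, a ligand of VEGFR1, was the 1 pathway gene called lower: it was at 4.49, 4.23 and 3.62 CPM in treated and at 9.60, 12.3 and 4.39 CPM in untreated d14 tumors, which overlap (-1.06 ± 0.34, adjusted p = 0.045).

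Of the other endothelial genes 5 of 39 were called higher in treated d14 tumors and 0 lower, with a median of 0.56, where 9.07% of all genes were called higher and 2.40% lower. Of 26 sprouting and 14 mural genes 2 each were called higher. These counts, and the 5 of 39, are near the share over all genes. By adjusted p alone 16 of the 39 endothelial genes were higher and 1 lower, where 17.7% of all genes were higher and 14.8% lower. The sprouting genes gave 9 higher and 2 lower by that rule, and the mural genes 6 higher and 0 lower. The 5 endothelial genes were Vwf (1.31 ± 0.25, adjusted p = 0.0094), the clotting factor stored in endothelial cells, Palmd, Fgd5, Exoc3l2 and Cd34, the last 4 at 1.01 to 1.08. Without untreated d14 replicate 3, 10 were called, and without untreated d14 replicate 2 or treated d14 replicate 2 the numbers were 2 and 3. Acvrl1 (1.33 ± 0.19, adjusted p = 0.0055), the BMP9 receptor ALK1 that acts with endoglin, and Cxcr4 (1.24 ± 0.23, adjusted p = 0.009), a chemokine receptor that leukocytes share, were called among the sprouting genes. Des (1.48 ± 0.19, adjusted p = 0.0049) and Myh11, at 3.48, 4.88 and 4.53 CPM against 2.62, 1.59 and 2.34 CPM (adjusted p = 0.018), were called higher among the mural genes.

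Genes of other cell types differed between the same tumors, in both directions. The 10 macrophage genes summed to 3659 to 4379 CPM in the treated and 1364 to 2408 CPM in the untreated d14 tumors, 6 of 10 being called higher. Of the 8 fibroblast genes 6 were called higher (summed level 2230 to 3416 against 894 to 1710 CPM), and of the 8 T cell genes 5 (228 to 256 against 80.9 to 150 CPM). The 8 mesothelial genes summed to less, 1372 to 1544 CPM in the treated against 2009 to 2052 CPM in the untreated tumors, although Wt1 and Lrrn4 were called higher. The 20 hypoxia response genes summed to 7604 to 8071 against 9268 to 10770 CPM, with 9 lower and 4 higher by adjusted p alone (14.8% and 17.7% of all genes), among the latter Epas1, Egln3 and Pfkfb3, which were called. No gene of these 5 lists was at 0 throughout a group. Pecam1, Eng and Flt1 can be made by such cells, and the part of these cell types and of hypoxia in their values was not tested. Nor was the part of the pancreatic tissue in treated d14 replicates 1 and 3. With treated d14 replicate 2, in which those genes summed to 1.52 CPM, as the only treated d14 tumor, the differences were 1.31 for Eng, 1.06 for Pecam1, 1.07 for Plvap, 0.77 for Kdr and 0.42 for Flt1. None of these passed the test (adjusted p = 0.096 to 0.16), with 1 tumor in the group and its spread taken from the untreated tumors.

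**Figure D4:**
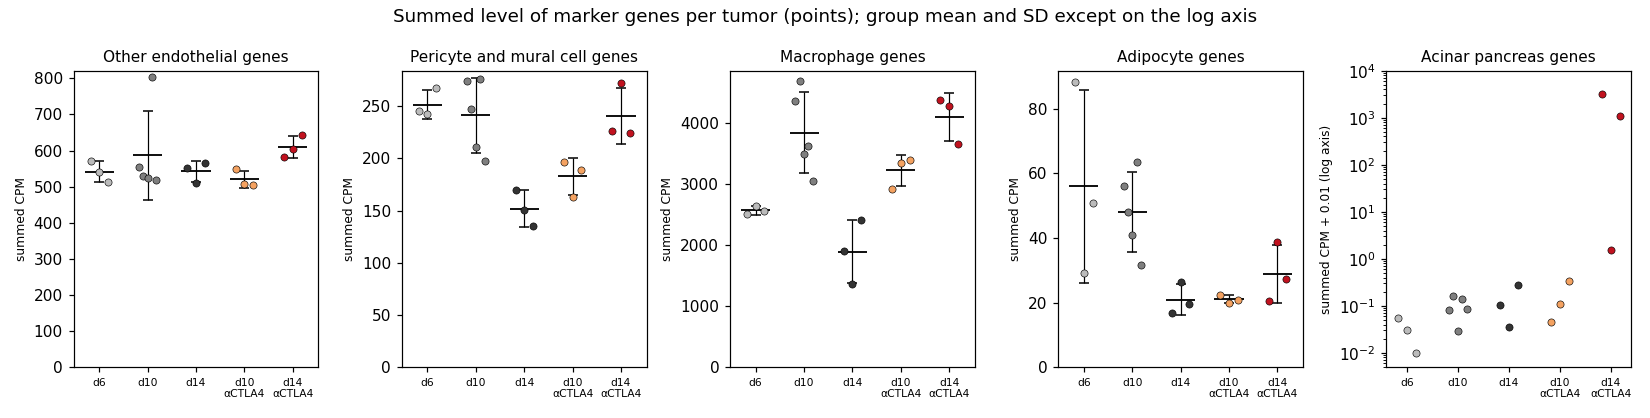
Summed CPM of marker genes in each tumor (points) with the group mean and SD; the panel of acinar pancreas genes has a log axis, with 0.01 added and no mean. Macrophage genes were at 3659 to 4379 CPM in treated and 1364 to 2408 CPM in untreated d14 tumors, and pancreas genes reached 1085 and 3199 CPM in 2 treated d14 tumors.

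At d10, no difference between treated and untreated tumors was detected in these genes. None of the 10 was called in edgeR's test, 0 had an unadjusted p below 0.05, and DESeq2 called 0, where 0.0174% of all 17258 genes were called. That background of 3 genes depended on the fit: 247 genes were called by DESeq2 and 115 without d10 replicate 5. It was 1133 with the replicate block and 1152 of 16963 with d10 replicates 1 to 3, both of which left out d10 replicates 4 and 5. In each of these fits 0 of the 10 genes were called. The differences ran from -0.54 ± 0.43 for Tek to 0.15 ± 0.19 for Angpt2. Kdr was at 10.9, 6.25 and 8.70 CPM in the treated d10 tumors and at 7.10 to 20.8 CPM in the untreated ones. The highest of the 5 untreated tumors was replicate 4 for Cdh5, Kdr, Tek, Angpt2, Emcn, Eng and Plvap. Without it the difference became 0.02 for Cdh5, 0.08 for Eng and 0.01 for Plvap, from -0.28, -0.14 and -0.36 with it.

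Treated tumors of d14 and d10 differed in nearly all of the 10 genes. Cdh5 (1.25 ± 0.16), Kdr (1.46 ± 0.18) and Tek (1.19 ± 0.24) were called higher on d14, with adjusted p of 0.00072, 0.00062 and 0.0037, where 9.00% of all 17791 genes were called higher. Each of these 3 stayed called when any 1 tumor was left out. With treated d14 replicate 2 as the only treated d14 tumor, a choice made after seeing the data that takes the spread from the treated d10 tumors alone, the values were 1.36, 1.47 and 1.45. Cdh5 was at 16.8, 11.4 and 15.6 CPM on d10 and at 27.0, 37.2 and 39.1 CPM on d14. Tek was at 0.61 to 0.83 CPM on d10 and at 1.29 to 2.05 CPM on d14, with no overlap for either gene. By adjusted p alone 9 of the 10 were higher, where 23.3% of all genes were. Flt1 was the exception (0.19 ± 0.10, adjusted p = 0.17), and Vegfa had the smallest of the 9 differences, 0.28 ± 0.08 (adjusted p = 0.02). Vegfa passed in 2 of 6 fits with 1 tumor left out, and with all 5 groups in 1 fit Angpt2, Plvap and Vegfa did not pass. The median of the 10 was 0.72, beside 0.04 over all genes tested.

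The same comparison of treated tumors gave 16 called higher of 39 other endothelial genes and 0 called lower. The largest differences were those of Syt15 (2.54 ± 0.32), Clec14a (1.63 ± 0.21) and Cd34 (1.58 ± 0.14), with adjusted p of 0.00064, 0.00071 and 0.00033. Among the mural genes, Rgs5, a pericyte gene, was at 2.45 to 4.07 CPM on d10 and at 10.9 to 15.7 CPM on d14, the highest in treated d14 replicate 2 (1.96 ± 0.20, adjusted p = 0.00037), and Cspg4 and Higd1b were called higher as well. Of the sprouting genes 3 of 25 were called higher, near the 9.00% of all genes: Aplnr (1.24 ± 0.27), Jag2 (1.09 ± 0.22) and Gdf2, the last at no more than 0.303 CPM in any tumor. Rgs5 in untreated d14 tumors was at 9.91 to 11.2 CPM, close to the treated d14 tumors. Of 8 mesothelial genes 5 were called higher and Krt19 lower (-1.09, adjusted p = 0.00049), and Krt8 (-0.75) and Msln (-0.48) were lower by adjusted p alone. Their summed level was 2145 to 2806 CPM in the treated d10 and 1372 to 1544 CPM in the treated d14 tumors. The fibroblast genes summed to 1337 to 1804 CPM and to 2230 to 3416 CPM, with 3 of 8 called higher. The macrophage genes summed to 2930 to 3400 CPM and to 3659 to 4379 CPM, with 0 of 10 called and 7 higher by adjusted p alone. Of the 20 hypoxia response genes 9 were lower and 4 higher by adjusted p alone, with Epas1 called higher. Over all genes 23.3% were higher and 23.3% lower by adjusted p alone, so the 4 higher hypoxia genes are near that share. The part of these lists in the vascular values was not tested.

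Treated d14 tumors were also set against untreated d10 tumors. Kdr was called (1.02 ± 0.31, adjusted p = 0.038), 1 of 10 where 5.34% of all 18057 genes were called higher, and Angpt2 passed by adjusted p alone (0.62 ± 0.19, adjusted p = 0.035), making 2 where 12.4% of all genes were higher. With 1 tumor left out, Angpt2 passed in 2 of 8 fits, those without d10 replicate 1 or 4. The call of Kdr depended on single tumors of both groups. It was lost when any 1 of d10 replicates 1, 2, 3 and 5 or any 1 treated d14 tumor was left out, with values of 0.90 to 1.11 and adjusted p of 0.058 to 0.12, whereas without d10 replicate 4 the value was 1.36 (adjusted p = 0.0017) and Cdh5 and Tek were called too.

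Whether the treatment difference at d14 exceeded that at d10 was tested as an interaction. Pecam1 (1.05 ± 0.21, adjusted p = 0.0063) and Eng (1.29 ± 0.35, adjusted p = 0.021) were called, 2 of 10 where 9.67% of all 18574 genes were called higher. With Flt1 (0.52 ± 0.15, adjusted p = 0.026) 3 passed by adjusted p alone, where 11.9% of all genes were higher. The treated minus untreated difference of Pecam1 was 0.91 at d14 and -0.16 at d10, and that of Eng was 1.17 and -0.14. In the same interaction 6 of 10 macrophage, 7 of 8 T cell and 7 of 8 fibroblast genes were called higher. So were 5 of 8 mesothelial and 5 of 7 adipocyte genes tested, and 0 genes of these lists were called lower. The part of these cell types in the values of Pecam1 and Eng was not tested. Plvap had the highest value of the 10 (1.30 ± 0.45, adjusted p = 0.058) and did not pass, although it was called in 6 of the alternatives that keep all tumors, DESeq2 among them. Tek (1.16 ± 0.57, adjusted p = 0.17), Kdr (1.13 ± 0.44, adjusted p = 0.093), Vegfa (-0.29 ± 0.23, adjusted p = 0.40) and Angpt2 (0.01 ± 0.36, adjusted p = 0.99) did not pass either. Flt1 no longer passed in 5 of the fits with 1 tumor left out. Neither Pecam1 nor Eng was called without treated d10 replicate 2, untreated d14 replicate 2 or treated d14 replicate 2. In those fits Pecam1 was 0.93 to 0.99 with adjusted p of 0.022 to 0.027, just under 2-fold, and Eng was 1.13 to 1.21 with adjusted p of 0.06 to 0.072. Pecam1 was also not called without untreated d10 replicate 2 or untreated d14 replicate 3, where Eng stayed called and Pecam1 still passed by adjusted p alone.

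Across the 17 tumors, correlations between the 10 genes are given as a description, since tumors of 5 groups share their group differences. On the log2 CPM scale, Cdh5 followed Kdr (Pearson r = 0.90), Emcn (0.89) and Angpt2 (0.86). Eng followed Plvap (0.96) and Pecam1 (0.85), and had 0.71 with Kdr and 0.65 with Cdh5. Plvap had 0.75 with Kdr and 0.71 with Cdh5, and Tek had 0.88 with Kdr and 0.76 with Plvap. Vegfa had 0.72 with Angpt2. Flt1 had negative coefficients with Vegfa (-0.64), Angpt2 (-0.60) and Emcn (-0.56), and Vegfa was near 0 with Eng and Plvap (-0.01 for each). Of 10641 protein coding genes, the levels most like Cdh5, with the 10 genes themselves left aside, were those of Mcam (0.95), Ptprb (0.94), Tie1 (0.90), Dysf (0.90) and Adgrl2 (0.89). Mcam, Ptprb, the phosphatase of Tie2, and Tie1 are known endothelial genes. The levels most like Vegfa were those of Prkab2 (0.95), Appl2 (0.94), Btc (0.93), Spire1 (0.93) and Eno2 (0.92), of which Eno2 is a glycolytic enzyme.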

How the data were processed

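Counts of whole reads per gene were deposited for 17 tumors in 1 table. According to the submitters' processing notes and the methods, the authors aligned reads to GRCm38 (mm10) with TopHat2 2.0.14, kept reads that mapped to 1 place, and assigned them to Gencode vM21 genes with HTSeq; the sources do not say whether strand was used. Libraries were sequenced on instruments of more than 1 model, and which library was run on which is not given in the sources used here. For their own analysis the authors set aside genes that differed between sequencing projects, whereas all genes of the deposited table were kept here.

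Groups followed the sample labels. Counts were tested with edgeR 4.0.16 in R 4.3.3 (filterByExpr, TMM, quasi-likelihood test) using only the groups compared, with Benjamini-Hochberg adjustment over all genes tested. Called means an adjusted p below 0.05 and a change of more than 2-fold. SE was obtained from the log2 fold change and the F statistic. CPM are TMM-normalized, without a pseudocount; correlations used log2(CPM + 1). The script was tested on simulated data. The members and gene lists were chosen with earlier results of these data known. All 55450 identifiers matched the annotation. Genes named were the 10 members, in each list the 3 called genes with the largest change in each direction or all where 5 or fewer were called, for the lists and comparisons described (not every such gene is printed), and the 5 genes, members excepted, most correlated with Cdh5 and with Vegfa among protein coding genes at 5 CPM or more; Id1, Sema3a, Krt8 and Msln, not called, lie outside this rule and were picked with their values in view, and per-sample values of Selp, Acta2 and other listed genes were printed after they were seen. Alternatives were DESeq2 1.42.0, no TMM, 2 other filters on low counts, all 5 groups in 1 fit, protein coding genes alone, thinned counts, adjusted p alone, the replicate number as a block, d10 replicates 1 to 3 or 4 and 5 (which earlier results of these data had set apart), each tumor left out, and, chosen after seeing the data, treated d14 replicate 2 alone. Same-numbered libraries of different groups did not deviate together (correlations from -0.30 to 0.18), so numbers were not used to pair samples. The block fits kept only replicate numbers found in every group compared, so those with untreated d10 tumors lack d10 replicates 4 and 5.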

Additional observations from a re-analysis of the deposited data

Results flagged for a closer look

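Of 27 measures (the 10 genes and the summed gene lists) examined in the 5 untreated d10 tumors, 3 had a highest tumor far from the other 4. They were Tek, at 2.38 CPM in d10 replicate 4, the 40 other endothelial genes, at a summed 804 CPM in the same tumor, and the 20 hypoxia response genes, at a summed 11440 CPM in d10 replicate 5. Chance alone marks about 1 in 20 such groups. The difference between treated and untreated tumors was itself different at d14 and at d10 for Pecam1 (1.05 on the log2 scale), Flt1 (0.52) and Eng (1.29), by the interaction test in edgeR with adjusted p below 0.05. Most of the listed macrophage, T cell and fibroblast genes were called higher in the same test, and their part in these values was not tested. Flt1 no longer passed without treated d10 replicate 1 or 2, untreated d14 replicate 2, or treated d14 replicate 1 or 2, and Eng no longer passed without treated d10 replicate 2, untreated d14 replicate 2 or treated d14 replicate 2.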

How the results depend on the processing

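Counts of called genes were recomputed under each alternative, and none of the alternatives turned the direction of a called gene. Between d10 and d6, the 10 genes gave 3 calls with d10 replicates 4 and 5 alone and 0 to 2 with each tumor left out. Between d14 and d10 they gave 2 by adjusted p alone, 1 with d10 replicates 4 and 5, and 0 with each tumor left out. Between d14 and d6 they gave 6 by adjusted p alone, 4 without TMM and with no filter, and 1 to 4 with each tumor left out. Between treated and untreated d14 tumors they gave 5 by adjusted p alone, 0 with treated d14 replicate 2 alone (a single tumor, assumed to vary like the untreated ones) and 1 to 3 with each tumor left out. Between treated d14 and untreated d10 tumors they gave 2 without TMM, 2 by adjusted p alone, 3 with the replicate block, 3 with d10 replicates 1 to 3, 0 with d10 replicates 4 and 5, 0 with treated d14 replicate 2 alone, and 0 to 3 with each tumor left out. Between treated d14 and treated d10 tumors they gave 9 by adjusted p alone 4 without TMM, with 10 counts in every library, with protein coding genes alone and with thinned counts, and 3 to 4 with each tumor left out. For the interaction they gave 3 by DESeq2, without TMM, with no filter, with 10 counts in every library, with all 5 groups and with protein coding genes alone (Plvap added in each), 3 by adjusted p alone (Flt1 added), 6 with d10 replicates 4 and 5, 1 with treated d14 replicate 2 alone and 0 to 4 with each tumor left out. By adjusted p alone the number of members that passed ranged over the alternatives from 0 to 6 between d10 and d6 (1 as reported), 0 to 4 between d14 and d10 (2), 5 to 7 between d14 and d6 (6), 0 to 7 between treated and untreated d14 tumors (5), 0 to 8 between treated d14 and untreated d10 tumors (2), 6 to 10 between treated d14 and treated d10 tumors (9) and 1 to 7 for the interaction (3). The replicate block changed no other count of called members, and numbers are not shown to pair samples. In comparisons with untreated d10 tumors the block fits also lack d10 replicates 4 and 5, so their changes cannot be credited to the block alone.

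The values that turned sign were uncalled, and the cause was not tested. The difference of d10 from d6 for Tek (0.32 as reported) was -0.15 with the replicate block, -0.17 with d10 replicates 1 to 3 and -0.19 to 0.47 with each tumor left out. The difference of d14 from d10 for Cdh5 (0.44 as reported) was -0.0139 with d10 replicates 4 and 5. The difference of d14 from d10 for Kdr (0.33 as reported) was -0.0539 with d10 replicates 4 and 5. The difference of d14 from d10 for Tek (0.0362 as reported) was -0.48 with d10 replicates 4 and 5 and -0.19 to 0.55 with each tumor left out. The difference of d14 from d6 for Pecam1 (0.0437 as reported) was -0.0945 to 0.14 with each tumor left out. The difference of d14 from d6 for Eng (0.11 as reported) was -0.0103 to 0.25 with each tumor left out. The difference of treated d14 from untreated d14 for Angpt2 (0.18 as reported) was -0.0474 to 0.57 with each tumor left out. The difference of treated d10 from untreated d10 for Cdh5 (-0.28 as reported) was 0.13 with the replicate block, 0.12 with d10 replicates 1 to 3 and -0.42 to 0.0247 with each tumor left out. The difference of treated d10 from untreated d10 for Eng (-0.14 as reported) was 0.15 with the replicate block, 0.11 with d10 replicates 1 to 3 and -0.29 to 0.0817 with each tumor left out. The difference of treated d10 from untreated d10 for Plvap (-0.36 as reported) was 0.10 with the replicate block, 0.0657 with d10 replicates 1 to 3 and -0.52 to 0.00987 with each tumor left out. The difference of treated d14 from untreated d10 for Flt1 (-0.0068 as reported) was 0.14 without TMM, 0.019 with no filter, 0.0273 with 10 counts in every library, 0.0345 with all 5 groups, 0.0633 with protein coding genes alone, 0.0135 with thinned counts, 0.0893 with d10 replicates 4 and 5, 0.0032 with treated d14 replicate 2 alone and -0.0484 to 0.0426 with each tumor left out. The difference of treated d14 from untreated d10 for Plvap (0.28 as reported) was -0.16 with d10 replicates 4 and 5. The interaction for Angpt2 (0.00581 as reported) was -0.0152 by DESeq2, -0.0253 with no filter, -0.0113 with all 5 groups, -0.0225 with protein coding genes alone, -0.0188 with thinned counts, -0.0541 with the replicate block, -0.0945 with d10 replicates 1 to 3 and -0.26 to 0.40 with each tumor left out.

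Without TMM the median of all genes moved from -0.03 to 0.11 between treated d14 and untreated d10 tumors and from 0.04 to 0.16 between treated d14 and treated d10 tumors, so small differences there are relative to that scaling. Depth limits Tek most, which had 32 to 204 reads per library, the fewest of the 10 genes. Leaving out 1 tumor often decided whether a change was more than 2-fold.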
